A study of Mus musculus with 4 samples.

Results

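Among thymic invariant natural killer T (iNKT) cells, 323 cells met a gate built for the earliest precursor stage, iNKT0, out of 30455 barcodes in 4 single-cell RNA-seq libraries. A cell entered the gate with at least 1000 unique molecular identifiers (UMIs), at least 500 genes and under 10% mitochondrial UMIs. It held no UMI of Cd79a, Rag1, Rag2, Dntt or Plac8 and under 3 UMIs of Nkg7 plus Il2rb. It also held a UMI of at least 3 of the 7 markers Lef1, Itm2a, Myb, Sox4, Egr2, Hivep3 and Cd24a. The cells were thus selected on measured values of these genes. The gate gave 71 and 53 cells in the wild-type (WT) libraries 1 and 2, and 105 and 94 cells in the ACC1 knockout (ACC1 KO) libraries 1 and 2. All mice were 6 to 8 weeks old. Their thymic cells had been enriched on magnetic beads and then sorted for CD3 and CD1d tetramer binding before 10x Genomics 3′ libraries (version 3.1) were made. The study asks, per its title, whether thymic iNKT cells need ACC1 to survive. ACC1, encoded by Acaca, makes malonyl-CoA for fatty acid synthesis. The labels do not give the strain, the deleted part of Acaca, a Cre driver, or if the libraries are from separate mice. Values of the 4 libraries follow below in the order WT 1, WT 2, ACC1 KO 1 and ACC1 KO 2.

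iNKT cells arise in the thymus from CD4 and CD8 double-positive (DP) thymocytes that meet lipid antigen on CD1d of neighbouring thymocytes. In mice, the cells just selected carry CD24, have received a strong T cell receptor signal that induces Egr2 and its relatives, and have not yet divided much or raised PLZF, the transcription factor encoded by Zbtb16. They then lose CD24, proliferate and become the cytokine-producing subsets iNKT1, iNKT2 and iNKT17, of which iNKT1 cells carry Il2rb and Nkg7.

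The gated cells held 321038, 453195, 317231 and 691100 UMIs in sum, with medians of 3022, 6211, 2442 and 5840 UMIs per cell. Levels are given as CPM, the UMIs of a gene scaled to the sum of all UMIs, and 3 UMIs came to 9.34, 6.62, 9.46 and 4.34 CPM. They were set beside 26148 cells with at least 3 UMIs of Nkg7 plus Il2rb (Nkg7/Il2rb-high cells) and 980 cells with under 3 such UMIs and a Plac8 UMI (Plac8-positive cells), under the same other criteria. In the gated cells Ddx3y, which is Y-linked, was at 109, 0, 59.9 and 0 CPM, and Xist, the RNA of the inactive X chromosome, at 0, 869, 0 and 1026 CPM. Libraries of one number thus shared sex, and those numbered 2 were deeper, so values within each number are given beside pooled ones. A total of 102 barcodes occurred in more than 1 library, among them 5 gated barcodes, and none was gated in more than 1 library. A doublet score marked 4 of the 323 gated cells, which were kept. P-values by genotype measure the spread between these 4 libraries, which may be technical. In the tests of differences between classes, they rest on the spread that remains with the library as a term. That spread is shared by sums of few gated cells and sums of many other cells.

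The gate markers are given first, as a description without a test, since they chose the cells. Lef1, a transcription factor that works with TCF1, led them at 2909, 3292, 4152 and 4086 CPM, against 151 to 208 CPM over the 4 libraries of Nkg7/Il2rb-high cells. Myb, needed for the long life of DP thymocytes, stood at 396, 280, 548 and 352 CPM. Hivep3, a zinc finger protein that mouse genetics ties to early iNKT development, stood at 663, 713, 984 and 867 CPM. For all 3 genes every gated library lay above every library of the other classes. Itm2a, Sox4 and Egr2 averaged 928 ± 451, 233 ± 68.2 and 110.5 ± 37.9 CPM (mean ± SD, n = 4 libraries). Cd24a was the scarcest, at 93.4, 28.7, 161 and 52.1 CPM, and 66 of the 323 gated cells (20.4%) held a UMI of it, against 0.0688% of Nkg7/Il2rb-high cells at a median of 5998 UMIs and 3742 in gated cells. Lef1 was seen in 98.8% of gated cells, and also in 47.3% of Nkg7/Il2rb-high cells. Of the gated cells, 104 held exactly 3 markers, 83 held 4, 80 held 5, 50 held 6 and 6 held all 7.

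At the edges of the gate, the 104 cells with exactly 3 markers held 1942 CPM of Tox and 33.7 CPM of Ccl5. The 200 cells just outside, with 2 markers, held 1042 CPM of Tox and 463 CPM of Ccl5. The 22 cells with 2 UMIs of Nkg7 plus Il2rb held 139 CPM of Ccl5, and the 21 cells otherwise alike with 3 such UMIs held 493 CPM. The 40 cells kept out by a single Plac8 UMI held 3542 CPM of Tox and 1487 CPM of Zbtb16, against 3359 and 659 CPM in the gated cells. A further 263 cells failed the DP and B gene criterion alone and held 472 CPM of Tox.

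Genes outside the gate described these cells further. Tox, a nuclear factor required for T cell lineages that arise by strong selection signals, stood at 2937, 2736, 3288 and 3997 CPM, against 134 to 246 CPM in Nkg7/Il2rb-high and 651 to 1594 CPM in Plac8-positive cells. Slamf6, a SLAM receptor through which thymocytes signal during iNKT selection, stood at 249, 214, 271 and 311 CPM, against 5.22 to 11.3 CPM in Nkg7/Il2rb-high cells. Id3, an E protein inhibitor induced by receptor signals, stood at 797, 485, 842 and 373 CPM, and Egr1, an early response factor, at 252, 241, 349.9 and 284 CPM. For Tox, Slamf6 and Egr1 every gated library lay above every library of both other classes, while Id3 overlapped with the Plac8-positive cells (432 to 636 CPM). By the smallest log2 ratio over the libraries (CPM with 20 added), the highest genes against Nkg7/Il2rb-high cells were Gm4258, 2610307P16Rik, Tox, Alcam and Slamf6, and the list went on with Lef1os1, Id3, Plxdc2, Nrgn, Themis, Basp1, Ccr9, Gm26936, Ramp1 and B630019A10Rik. Themis encodes a protein of positive selection in thymocytes and Ccr9 a chemokine receptor of thymocytes. Nrgn, Ccr9 and Ramp1 were not particular to gated cells, at a pooled 652, 224 and 417 CPM there. In Plac8-positive cells they were at a pooled 750, 308 and 411 CPM. The other genes of this list had a higher pooled CPM in gated than in Plac8-positive cells. The lowest were Klra9, Styk1, Ccl5, Klrk1, Itga1, Klrd1, Gzmb, Klre1, Gzma and Fgl2, which are natural killer receptors, cytotoxic genes and other iNKT1 genes for the most part. Ccl5, a chemokine, was at 118, 15.4, 44.1 and 73.8 CPM in gated cells and at 1657 to 2349 CPM in Nkg7/Il2rb-high cells. In all 4 libraries 154 genes were at least 1 log2 unit higher and 160 at least 1 log2 unit lower in the gated cells, of 7893 genes with 20 CPM in a library. Against Plac8-positive cells these counts were 56 and 3 of 7800. The highest there were 2610307P16Rik, Bach2, Alcam, Rasgrp1, Plxdc2, Egr1, Med14, Etnk1 and Bcl2, and the lowest Igfbp4, Lgals3 and Tesc. Rasgrp1 passes receptor signals to Ras, Bach2 is a transcriptional repressor of effector genes, and Bcl2 protects from apoptosis. Bcl2 stood at 564, 563, 766 and 677 CPM in gated cells. Its pooled level was 643 CPM there, 166 CPM in Plac8-positive cells and 622 CPM in Nkg7/Il2rb-high cells.

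**Figure D1:**
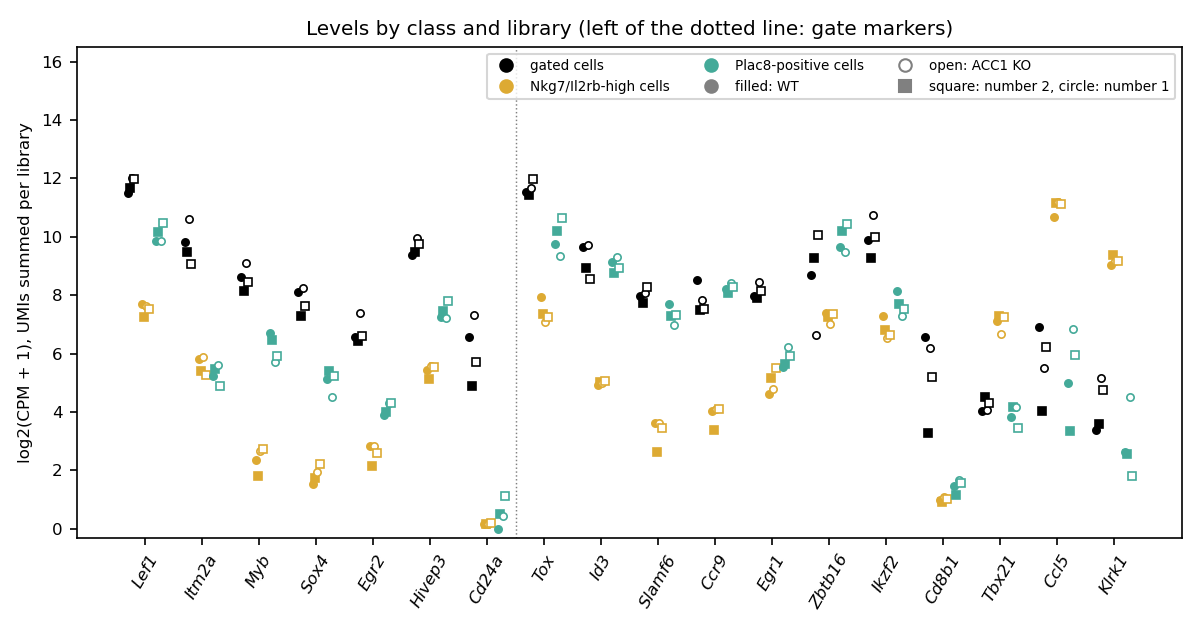
Levels of 18 genes as log2(CPM + 1) of UMIs summed per library in gated cells (black), Nkg7/Il2rb-high cells (yellow) and Plac8-positive cells (green), 4 libraries each. The 7 gate markers chose the cells; to the right of them, Tox and Slamf6 sit above both other classes in all 4 libraries, Zbtb16 varies from 97.7 to 1061 CPM among gated libraries, and Ccl5 and Klrk1 sit below the Nkg7/Il2rb-high cells.

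The label was checked against markers of other cell types. Summed over its 10 genes, the iNKT1 list held 157 to 262 CPM in gated cells and 5357 to 6100 CPM in Nkg7/Il2rb-high cells. This list includes Nkg7 and Il2rb, which the gate capped and which define the other class. Part of that contrast was thus fixed in advance. The iNKT2 list, of which 9 of 10 genes had a UMI and Plac8 none by the gate, held 1002 to 2531 CPM against 3459 to 3868 CPM in Plac8-positive cells. Zbtb16 was far from uniform, at 411, 616, 97.7 and 1061 CPM. Of the DP thymocyte list 6 of 10 genes had a UMI, with a sum of 141 to 330 CPM. That sum was 33.0 to 61.1 CPM in Nkg7/Il2rb-high and 104 to 163 CPM in Plac8-positive cells. In gated cells Ptcra, the pre-T cell receptor chain, was at 0 beside Rag1, Rag2 and Dntt, which the gate removed. Cd8a or Cd8b1 was seen in 26.8, 9.43, 17.1 and 21.3% of gated cells, 62 of 323 in all, against 0.574% of Nkg7/Il2rb-high and 2.55% of Plac8-positive cells. The regulatory T cell list stood at 666 to 1891 CPM, nearly all from Ikzf2, which encodes Helios, while Foxp3, the factor that defines those cells, was at 0 in every library. Sums were 27.5 to 123 CPM for B cells, 103 to 149 for myeloid cells, 128 to 158 for stroma, 28.4 to 135 for gamma delta T cells, 25.2 to 143 for iNKT17, 539 to 781 for mature conventional T cells and 123 to 331 for interferon-responding cells. At 0 in all libraries were Ms4a1 and Ebf1 of B cells, Itgam, S100a8 and S100a9 of myeloid cells, Krt8, Col1a1 and Col3a1 of stroma, Trdv4 of gamma delta T cells, and Il17a and Ccr6 of iNKT17. Other members had UMIs. In clusters 1, 2 and 3 (below), Pecam1 of stroma was at 152, 141 and 90.9 CPM and Cst3 of myeloid cells at 120, 133 and 83.0 CPM. Tcrg-C4 of gamma delta T cells was at 2.41, 4.21 and 85.3 CPM, and Blk of iNKT17 at 0, 0 and 29.2 CPM. Stroma sums were 22.8 to 26.2 CPM in Nkg7/Il2rb-high and 64.8 to 126 CPM in Plac8-positive cells. Myeloid sums were 288 to 405 and 106 to 324 CPM. Cycling genes summed to 369 to 772 CPM, and 35 of 323 cells held a UMI of Mki67, Top2a, Ube2c or Birc5.

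The gated cells fell into 3 clusters when clustered without the gate genes. Cluster 1 (136 cells, median 2687 UMIs) was led by Cd8b1, Cd8a, 2610307P16Rik, Colq, Tcf7, Cd24a, Bach2, Themis, Arap2 and Hapln1. It held 221 CPM of Cd24a, 3431 CPM of Satb1, a chromatin organiser of DP thymocytes, and no UMI of Zbtb16. Cluster 2 (108 cells, 3744 UMIs) was led by Siae, Nrgn, Tnfsf8, Lef1os1, Slc29a1 and Slamf6 and held 69.4 CPM of Cd24a and 143 CPM of Zbtb16. Slamf6 stood at 644 CPM there and at 185 and 107 CPM in clusters 1 and 3. Cluster 3 (79 cells, 9522 UMIs) was led by S100a6, Gm2682, St6galnac3, 2600014E21Rik, Pclaf, Top2a, Zbtb16, AW112010, Id2 and Il18r1. It held 1242 CPM of Zbtb16, 614 CPM of Icos, 223 CPM of Il4 and 5.61 CPM of Cd24a, with Tox at 1534 CPM against 6034 and 4444 CPM in clusters 1 and 2. Lef1 stood at 6026 and 6625 CPM in clusters 1 and 2 and at 1023 CPM in cluster 3. Cluster 1 had more DP thymocyte than iNKT0 markers among its leading genes, while cluster 3 had an iNKT2 and a cycling marker and no iNKT0 marker. For this reason the cells are called gated cells here and not iNKT0 cells. Cluster 1 made up 63.4, 28.3, 42.9 and 33.0% of the gated cells of the 4 libraries, cluster 2 made up 14.1, 34.0, 43.8 and 36.2%, and cluster 3 made up 22.5, 37.7, 13.3 and 30.9%. The libraries thus differed in their mix, with the fewest cells of cluster 3 in ACC1 KO 1. Of the 321038, 453195, 317231 and 691100 gated UMIs, cluster 3 held 146528, 283065, 79100 and 382751. In every library its share of UMIs, which weighs in summed levels, was above its share of cells. Since leading genes of cluster 3 take part in the results below, these shares were not compared between genotypes.

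**Figure D2:**
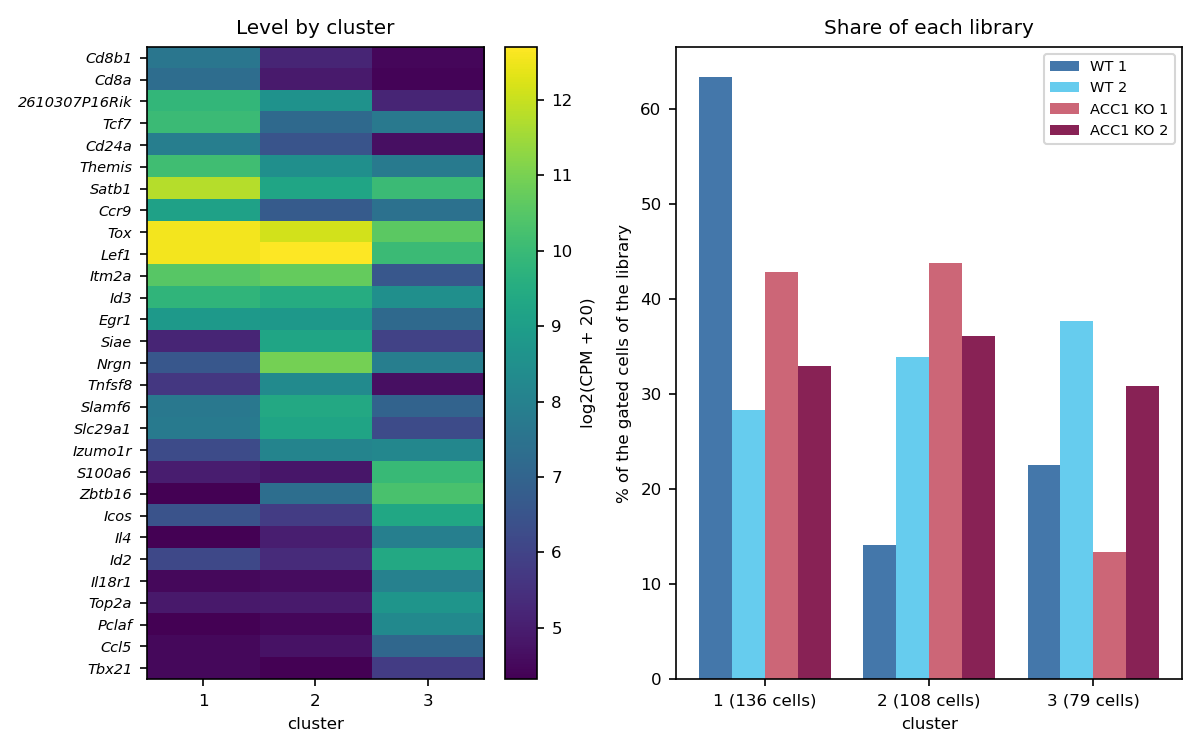
Left, log2(CPM + 20) of 29 genes in the 3 clusters of gated cells, UMIs summed over libraries. Right, each cluster's percentage of the gated cells of a library (bars, no error since each bar is 1 library); cluster 1 makes up 63.4% of WT 1 and cluster 3 13.3% of ACC1 KO 1.

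The beta chain variable genes gave a readout that the gate did not use, although its gene set was chosen after values were seen. Mouse iNKT receptors pair an invariant alpha chain mostly with Vβ8, Vβ7 and Vβ2, the products of Trbv13-1, Trbv13-2, Trbv13-3, Trbv29 and Trbv1. These genes took 36 of 71 Trbv UMIs in cluster 1 (50.7%, 95% Clopper-Pearson interval 38.6 to 62.8%), 28 of 36 in cluster 2 (77.8%, 60.8 to 89.9%) and 25 of 41 in cluster 3 (61.0%, 44.5 to 75.8%). In cells with a Rag1, Rag2 or Dntt UMI the share was 25.3%, in Nkg7/Il2rb-high cells 64.4% and in Plac8-positive cells 68.1%. By library the gated cells stood at 48.8, 77.8, 43.9 and 76.9%, so that both libraries numbered 1 lay below both numbered 2. These intervals cover counting error only and treat UMIs of the same cell as separate draws, so they may be too narrow.

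Cells with a Cd24a UMI differed from the other gated cells in further genes, in the same direction in all 4 libraries. Nr4a1, an immediate early gene of receptor signalling, was at 355 CPM in the 66 Cd24a-positive cells and at 87.5 CPM in the 257 others, and Ikzf2 at 3048 and 761 CPM. Zbtb16 was at 4.86 CPM (1 UMI) and 745 CPM, and the cycling genes Top2a, Pclaf and Mki67 had no UMI in Cd24a-positive cells and stood at 227, 166 and 78.0 CPM in the others. The 62 cells with a Cd8a or Cd8b1 UMI were higher in Themis (1392 against 311 CPM), Arpp21 (195 against 12.1 CPM), Satb1 (3212 against 1234 CPM) and Bcl2l1, a survival gene of DP thymocytes (83.8 against 12.1 CPM). They held no UMI of Zbtb16, and S100a6 had 3 UMIs there, against 565 CPM in the other cells. Both splits are descriptions within the gated cells, and their median depths were 2726 and 4090 UMIs by Cd24a and 2888 and 4104 by Cd8.

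The first comparison by genotype was of abundance. Gated cells made up 1.48, 0.543, 1.79 and 1.13% of the cells without B or DP gene UMIs, with Clopper-Pearson intervals of 1.16 to 1.86, 0.407 to 0.710, 1.47 to 2.16 and 0.912 to 1.38%. The WT libraries averaged 1.01 ± 0.662% and the ACC1 KO libraries 1.46 ± 0.469% (mean ± SD, n = 2 each), and the genotypes overlapped. The difference of 0.447 percentage points did not pass an exact two-sided permutation test (p = 0.667, where 2 against 2 libraries cannot give a p below 0.33). Within numbers, ACC1 KO held 1.21 times the WT share in number 1 and 2.07 times in number 2, and without WT 2 the difference was -0.0211 points. Among cells with under 3 UMIs of Nkg7 plus Il2rb, the gated cells took 15.4, 11.3, 11.8 and 11.8%. The Plac8-positive cells went from 2.48 and 1.37% to 5.81 and 4.63%, without overlap (exact two-sided permutation test, p = 0.33, the smallest possible). A share says nothing of absolute cell number, which the libraries do not give.

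**Figure D3:**
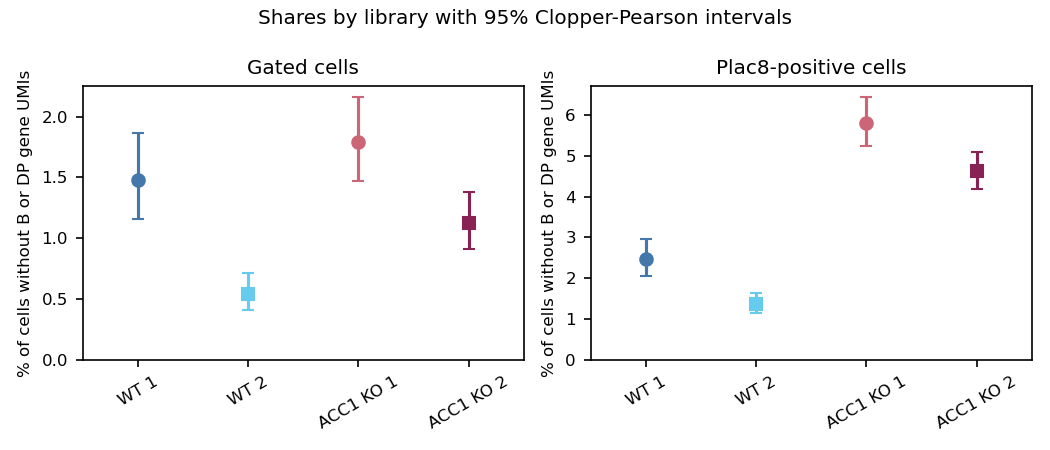
Percentage of gated cells (left) and Plac8-positive cells (right) among cells without B or DP gene UMIs, by library, with 95% Clopper-Pearson intervals for counting error. Gated cells range from 0.543 to 1.79% with the genotypes overlapping, and Plac8-positive cells lie higher in both ACC1 KO libraries.

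Acaca (ENSMUSG00000020532, mm10 chromosome 11, 84129672 to 84401651, plus strand) was at 37.4, 41.9, 34.7 and 68.0 CPM in gated cells, from 12, 19, 11 and 47 UMIs. The genotypes overlapped, with a log2 fold change of 0.40 ± 0.43 (SE) that did not pass (edgeR quasi-likelihood test, adjusted p = 0.9998). It was -0.12 in number 1 and 0.60 in number 2. These libraries read 3′ ends and the deleted part is not given, so the counts check nothing about the genotype.

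Across 5875 genes tested by genotype in the gated cells, none passed at an adjusted p of 0.05 in edgeR (0%), and 141 (2.4%) had an unadjusted p under 0.05, 72 higher (1.23%) and 69 lower (1.17%) in ACC1 KO. DESeq2 called none either. With the replicate number, which sex followed, added to the edgeR fit as a block, 19 genes passed (0.323%), 2 higher (0.034%) and 17 lower (0.289%). Among those lower were S100a6, Hgsnat, Vim, Itgb7, Itgae and Ifi27l2a (edgeR adjusted p = 5.4e-04 to 0.0407). Elsewhere, passing refers to the fit without this block. The genotypes did not overlap in 906 genes higher (15.4%) and 658 genes lower (11.2%) in ACC1 KO. On simulated sums of this depth, with the same spread for every gene, the test recovered 85.4% of genes changed 4-fold and 10.8% of those changed 2-fold. Changes near 2-fold were thus mostly not detectable here. The real sums need not share that spread, so the 4-fold recovery may not hold for them. Hgsnat and Gzmb, with log2 fold changes of -2.04 and 2.43, did not pass. None of the following genes passed (adjusted p = 0.9998 for each). With the smallest unadjusted p among genes without overlap, Myo9a, Nr4a3, Nin, Gzmb and Hecw2 were on the higher side, and Hist1h1b, Vim, Hgsnat, Tesc and Bcl2a1d on the lower side. Nr4a3, an orphan nuclear receptor induced by receptor signals, stood at 21.8, 19.9, 69.3 and 56.4 CPM (log2 fold change 1.52 ± 0.42). Myo9a, an unconventional myosin, stood at 21.8, 13.2, 50.4 and 82.5 CPM (1.97 ± 0.47). Bcl2a1d, a BCL2 relative with near-identical gene copies that make its count uncertain, stood at 87.2, 79.4, 18.9 and 37.6 CPM (-1.47 ± 0.40).

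Fatty acid synthesis genes came next, since ACC1 stands at the start of that pathway. Of 21 listed genes 9 were deep enough to test, and none passed. Without overlap, 4 were higher in ACC1 KO and 1 lower, beside 15.4% and 11.2% of all genes. A fold change above 0 was found in 7, beside 2947 of all 5875 genes. The median log2 fold change of the 9 genes was 0.24, with 0.10 in number 1 and 0.26 in number 2, beside 0.0011 for all genes. Over the same genes the median was 0.76 in Nkg7/Il2rb-high and 0.47 in Plac8-positive cells. Scd2 (ENSMUSG00000025203, chromosome 19, 44293674 to 44306864, plus strand), which puts a double bond into stearoyl-CoA, was at 68.5, 101.5, 113 and 229 CPM in gated cells. Both ACC1 KO libraries were higher, but ACC1 KO 1 lay close to WT 2. The log2 fold change was 0.99 ± 0.39 (SE, unadjusted p = 0.0243), with 0.66 in number 1 and 1.09 in number 2. Fasn, the fatty acid synthase, was at 43.6, 33.1, 66.2 and 55.0 CPM (0.62 ± 0.38). Srebf1, which encodes the lipogenic regulator SREBP1, had a log2 fold change of 0.24 ± 0.46. It was 1.75 ± 0.13 in Nkg7/Il2rb-high and 1.76 ± 0.26 in Plac8-positive cells. By the direct tests described below, the effect in gated cells differed from these by -1.52 ± 0.46 and -1.51 ± 0.47. Neither difference passed (edgeR adjusted p = 0.203 and 0.9997). Among the members too shallow to test, Scd1 had 0, 0, 0 and 3 UMIs and Fads2, the delta-6 desaturase, 1, 0, 0 and 5 UMIs.

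Cholesterol synthesis was sampled thinly, with 6 of 26 listed genes tested, none passing and none free of overlap between genotypes. Their median log2 fold change was 0.13, against 0.62 in Nkg7/Il2rb-high cells and 0.42 in Plac8-positive cells. Fdps (chromosome 3, 89093588 to 89101959, minus strand), which makes farnesyl diphosphate on the way to sterols and isoprenoids, was at 31.1, 55.2, 44.1 and 56.4 CPM, a log2 fold change of 0.17 ± 0.41. Srebf2, the regulator of this pathway, stood at 18.7, 64.0, 82.0 and 63.7 CPM (0.66 ± 0.48). Squalene epoxidase, Sqle, had 0, 0, 0 and 4 UMIs. Among 7 tested of 11 sterol efflux and LXR target genes, Abcg1, a sterol exporter, was the 1 member higher without overlap, at 52.95, 39.7, 63.0 and 110 CPM (0.93 ± 0.40, unadjusted p = 0.0359). The median of that list was 0.27. Fatty acid uptake (4 tested) and oxidation (9 tested) had medians of -0.079 and 0.0077.

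**Figure D4:**
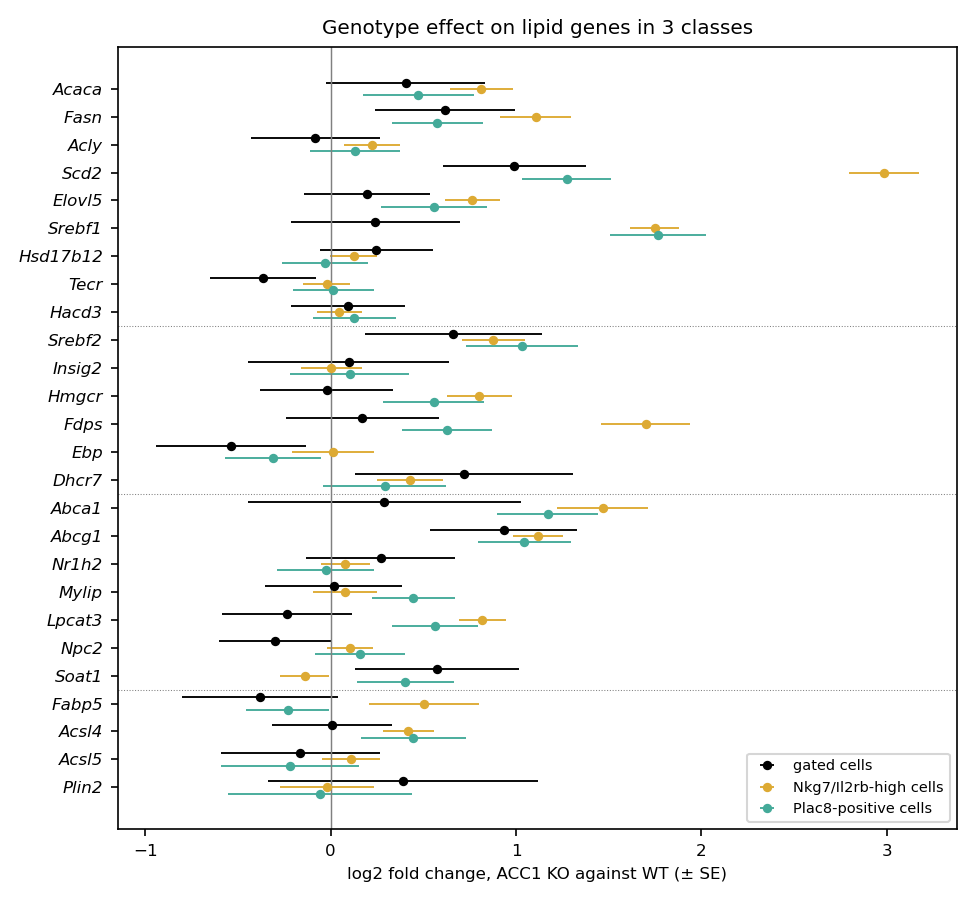
Log2 fold changes (ACC1 KO against WT, ± SE, edgeR) of the 26 tested genes of fatty acid synthesis, cholesterol synthesis, sterol efflux and fatty acid uptake (from top to bottom, dotted lines between lists) in gated (black), Nkg7/Il2rb-high (yellow) and Plac8-positive (green) cells. Scd2 stands at 0.99 in gated cells and 2.99 in Nkg7/Il2rb-high cells, and no gated value passed adjustment.

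Whether the genotype acted differently in gated and Nkg7/Il2rb-high cells was tested directly, on 8 sums with the library as a term. Of 13212 genes, 34 passed (0.257%), 5 with a higher effect (0.0378%) and 29 with a lower effect (0.219%) in gated cells. At an unadjusted p under 0.05 there were 745 (5.64%), 278 higher (2.1%) and 467 lower (3.53%). The clearest lipid gene was Scd2. In Nkg7/Il2rb-high cells it went from 35.7 and 25.7 CPM to 219.8 and 241.5 CPM, so that WT gated cells had more Scd2 than WT Nkg7/Il2rb-high cells, and ACC1 KO gated cells had less, by little in number 2. Its log2 fold change in Nkg7/Il2rb-high cells alone was 2.99, which did not pass in the fit of those 4 sums (edgeR adjusted p = 0.0879). The effect in gated cells was 2.09 ± 0.31 log2 units lower (difference -2.09, edgeR adjusted p = 7.4e-08). The call was lost without WT 2 (-1.50, adjusted p = 0.762). It held with the same number of cells drawn from both classes (-1.89, adjusted p = 0.0226) and in clusters 1 and 2 alone (-2.54, adjusted p = 2.4e-06), both alternatives added after seeing the data. By cluster, Scd2 was at 63.8, 177, 96.2 and 97.1 CPM in cluster 1, at 120, 87.9, 89.9 and 220 CPM in cluster 2 and at 61.4, 88.3, 177 and 272 CPM in cluster 3. The genotypes overlapped in clusters 1 and 2, and in cluster 3 both ACC1 KO libraries were higher, from 14 and 104 UMIs. Fdps went from 15.4 and 21.3 to 51.4 and 63.4 CPM in Nkg7/Il2rb-high cells, a difference of -1.57 ± 0.40 (adjusted p = 0.0329). Its adjusted p was above 0.05 without each of the 4 libraries in turn (0.0648 to 1.0). Of the 9 tested fatty acid synthesis genes 8 had a lower effect in gated cells, and Scd2 was the 1 that passed. Beside them, 3169 of all 5875 genes tested in gated cells had a lower effect, and 28 passed in either direction.

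**Figure D5:**
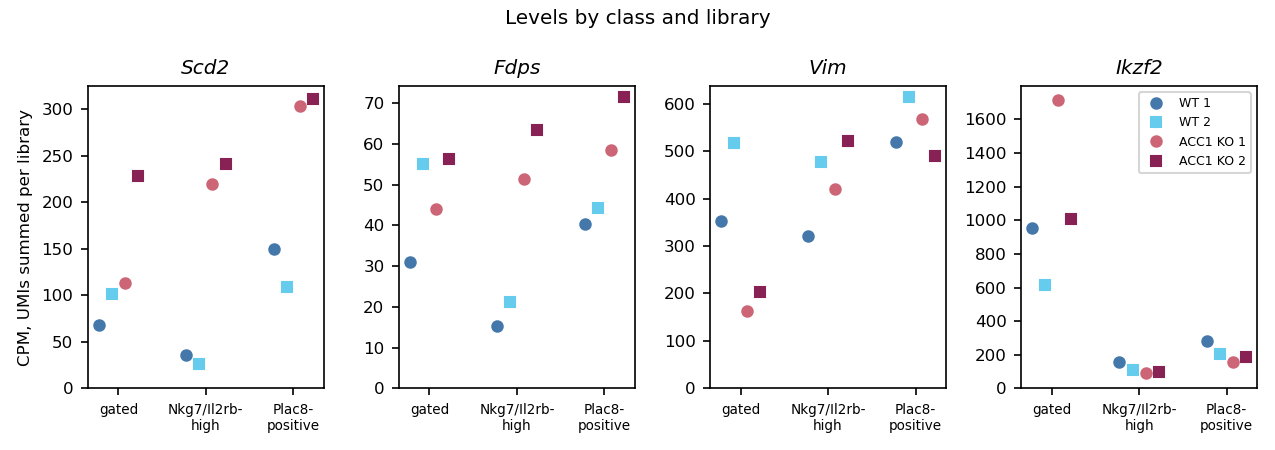
CPM of Scd2, Fdps, Vim and Ikzf2 in 4 libraries (points) of gated, Nkg7/Il2rb-high and Plac8-positive cells. Scd2 separates the genotypes widely in Nkg7/Il2rb-high cells (25.7 and 35.7 against 219.8 and 241.5 CPM), less so in gated cells, and Vim separates them in gated cells alone of these classes.

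Leading genes of cluster 3 were among the other calls. S100a6, a calcium-binding protein of effector and memory T cells, was at 452, 960, 183 and 362 CPM in gated cells and at 1310, 1926, 1823 and 1871 CPM in Nkg7/Il2rb-high cells (difference -1.66 ± 0.24, adjusted p = 3.0e-08). Vim, the intermediate filament vimentin, was at 352, 516, 164 and 203 CPM in gated cells (difference -1.62 ± 0.26, adjusted p = 7.9e-07). For both, the 2 ACC1 KO libraries lay below the 2 WT libraries in gated cells. The histone genes Hist1h2ap and Hist1h1b, made in S phase, had differences of -1.71 ± 0.25 and -1.78 ± 0.28 (adjusted p = 7.4e-08 and 4.0e-07). Top2a, Pclaf, Rrm2, Cdk1, Mki67 and Nusap1 were called lower as well. These differences held a rise in Nkg7/Il2rb-high cells as well. Hist1h2ap was at 455, 402, 214 and 388 CPM in gated cells and at 41.6, 70.7, 113 and 116 CPM in Nkg7/Il2rb-high cells. Log2 fold changes by genotype for Hist1h1b, Top2a, Rrm2, Cdk1, Mki67 and Nusap1 were -1.19, -0.67, -1.20, -0.95, -0.31 and -0.47 in gated cells. In Nkg7/Il2rb-high cells they were 0.57, 0.93, 0.72, 0.93, 1.05 and 1.08, and none passed in either class alone. In the cells of cluster 3, S100a6 stood at 983, 1526, 733 and 640 CPM, while clusters 1 and 2 held at most 35.3 CPM. The call of S100a6 was lost without WT 2 (adjusted p = 0.354) and with at least 4 markers (adjusted p = 1.0), and those of both histones without WT 1 (0.277 and 0.281). Cluster 3 made up 22.5, 37.7, 13.3 and 30.9% of the gated cells, beside 452, 960, 183 and 362 CPM of S100a6. These are shares of cells, while shares of UMIs weigh in summed levels. Within cluster 3, Vim stood at 594, 760, 493 and 280 CPM. The part of the share of cluster 3 in these levels was not tested. With clusters 1 and 2 alone, 5 of the 34 calls remained, Aff3, Akr1c18, Ifi27l2a, Ikzf2 and Scd2. The difference of S100a6 was then -0.59 (adjusted p = 1.0) and that of Vim -0.9996 (adjusted p = 1.0). The clusters came from these same counts, and S100a6, Top2a and Pclaf lead cluster 3. Loss of their calls in clusters 1 and 2 was thus largely fixed by the choice of cells. Without cells holding a UMI of a cycling gene, 9 of the 34 remained, S100a6, Vim and Scd2 among them, and Hist1h2ap turned to 0.40. With the same number of cells in both classes, 7 remained, namely Ifi27l2a, Iigp1, Klf2, S100a6, Scd2, Sidt1 and Vim.

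The calls with a higher effect in gated cells were Ikzf2, Klra4, Fcer1g, Myo9a and Myo6. Of the 34 calls, 6 were of genes too shallow to be tested in gated cells alone, Klra4, Fcer1g and Myo6 among them. These 3 averaged 13.8, 10.9 and 11.7 CPM in gated cells and 55.7, 253 and 38.5 CPM in Nkg7/Il2rb-high cells, whose sums were in the filter of the joint fit. Ikzf2 (chromosome 1, 69531214 to 69687245, minus strand), a zinc finger factor that rises in strongly signalled thymocytes, was at 953, 616, 1718 and 1008 CPM in gated cells, with both ACC1 KO libraries the higher. In Nkg7/Il2rb-high cells it was at 156, 111, 91.6 and 98.4 CPM, with both ACC1 KO libraries lower. The difference was 1.11 ± 0.23 (adjusted p = 0.0025). It lost its call without WT 1, WT 2 or ACC1 KO 1 (adjusted p = 0.281, 0.958 and 0.343), with at least 4 markers (0.201) and with the same number of cells (0.57, adjusted p = 0.846). Ikzf2 was highest in cluster 1, at 1638, 1653, 2137 and 3540 CPM, and lowest in cluster 3, at 307, 261, 379 and 214 CPM. Myo9a differed by 2.09 ± 0.48 (adjusted p = 0.0079), and its call was lost without WT 1, WT 2 or ACC1 KO 2 (adjusted p = 0.116, 0.765 and 0.391). Fcer1g, an Fc receptor chain, rested on 3.11, 0, 15.8 and 24.6 CPM in gated cells (4.31 ± 0.93, adjusted p = 0.0027), and lost its call without any library but ACC1 KO 1 (adjusted p = 0.0739 to 1.0). Klra4, a natural killer receptor, and Myo6, a myosin, were at 39.1 and 36.2 CPM in ACC1 KO 2 and at 0 in ACC1 KO 1, and both turned to the opposite sign without ACC1 KO 2 (-3.0 and -8.69). In Nkg7/Il2rb-high cells Klra4 was at 66.6, 102, 0.688 and 53.9 CPM, with ACC1 KO 1 far below the others.

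Set against the nearest class, the Plac8-positive cells, 1 of 8786 genes passed (0.0114%), with 373 (4.25%) at an unadjusted p under 0.05, 184 higher (2.09%) and 189 lower (2.15%). The number of calls was not stable, at 11, 12, 12 and 31 without WT 1, WT 2, ACC1 KO 1 and ACC1 KO 2, at 23 without cycling cells, at 17 in clusters 1 and 2 and at 0 with at least 4 markers or with the same number of cells. The 1 call was Akr1c18, a steroid dehydrogenase, which was too shallow to be tested in gated cells alone (mean 8.7 CPM, against 79.96 in Plac8-positive cells). Its gated levels of 31.1, 2.21, 0 and 1.45 CPM came from few UMIs, while Plac8-positive cells held 42.1, 12.9, 188 and 76.6 CPM (difference -5.89 ± 1.03, adjusted p = 0.0489). The call was lost without WT 1 (adjusted p = 1.0) and turned to 1.82 without cycling cells (adjusted p = 0.988). Scd2 was at 149.9, 109, 304 and 311 CPM in Plac8-positive cells, and its difference was -0.34 ± 0.42 (adjusted p = 0.9997), a 1 SE range that includes 0.

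Cell cycle genes were on the lower side in ACC1 KO gated cells, none of them passing. Of 14 tested S phase genes, 7 lay lower without overlap and none higher, beside 11.2% and 15.4% of all genes. None had a fold change above 0, beside 2947 of all 5875 genes. The median log2 fold change of the 14 genes was -0.36, with -0.39 in number 1 and -0.41 in number 2. It was 0.28 in Nkg7/Il2rb-high cells but -0.26 in Plac8-positive cells, so the lower side was not particular to gated cells. Mcm3, a subunit of the replicative helicase, was at 93.4, 101.5, 50.4 and 55.0 CPM (-0.91 ± 0.34, unadjusted p = 0.0184). Among 11 tested mitosis genes 3 lay lower and none higher, beside the same shares of all genes. Their median was -0.31 (-0.012 in number 1 and -0.61 in number 2), against 0.94 in Nkg7/Il2rb-high and -0.029 in Plac8-positive cells. The summed mitosis level was 651, 1282, 905 and 699 CPM, with WT 2 the highest. Few cells held a UMI of Mki67, Top2a, Ube2c or Birc5, namely 5, 11, 5 and 14 gated cells. They made up 7.04, 20.8, 4.76 and 14.9% of gated cells. The genotypes overlapped in this share, and both libraries numbered 2 lay above both numbered 1. Of these 11 mitosis genes 4 had a lower effect in gated than in Nkg7/Il2rb-high cells that passed, beside 28 of all 5875 genes in either direction. Top2a stood at 392 CPM in cluster 3 and at 9.62 and 10.5 CPM in clusters 1 and 2, and the part of the share of cluster 3 in these levels was not tested.

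Genes of receptor signalling and survival did not pass either. Of 23 tested receptor signal and immediate early genes, 8 lay higher and 3 lower without overlap (15.4% and 11.2% of all genes), with a median of 0.35 (0.22 in number 1 and 0.44 in number 2) beside 0.24 in Nkg7/Il2rb-high cells. Cd69, an activation antigen that retains thymocytes, was at 209, 83.8, 353 and 207 CPM (0.91 ± 0.40), with ACC1 KO 2 just below WT 1. Fos stood at 21.8, 37.5, 34.7 and 86.8 CPM (1.04 ± 0.50). The 7 tested pro-apoptotic genes had a median of 0.10 and the 8 anti-apoptotic genes one of 0.053, with 2 of the latter higher and 2 lower without overlap, beside the same shares of all genes. Bcl2l11, which encodes the BH3-only protein BIM of thymocyte deletion, was at 65.4, 17.7, 136 and 39.1 CPM (0.997 ± 0.71), with both libraries numbered 1 above both numbered 2. Bbc3, which encodes PUMA, was at 21.8, 22.1, 37.8 and 28.9 CPM (0.52 ± 0.50). The 7 tested p53 targets had a median of 0.13, the 12 genes of the integrated stress response 0.072, the 10 of ferroptosis and lipid peroxide defence 0.038 and the 14 of glycolysis -0.14. Bcl2a1b, another BCL2 relative with near-identical copies, stood at 162, 185, 50.4 and 116 CPM (-1.02 ± 0.37, unadjusted p = 0.0175).

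Migration and interferon genes had the lowest medians of the 21 lists. Of 15 tested migration and egress genes, 6 lay lower without overlap and none higher (11.2% and 15.4% of all genes). A fold change above 0 was found in 1, beside 2947 of all 5875 genes. The median of the 15 genes was -0.44 (-0.50 in number 1 and -0.28 in number 2) beside -0.053 in Nkg7/Il2rb-high cells. Itgae, the CD103 integrin chain, was at 56.1, 66.2, 3.15 and 27.5 CPM (-1.75 ± 0.57), and its partner Itgb7 at 59.2, 146, 25.2 and 49.2 CPM (-1.44 ± 0.48). Both passed with the replicate block (edgeR adjusted p = 0.0192 and 0.0158). Klf2, a factor of thymic egress listed among developmental regulators, was at 159, 154, 82.0 and 72.3 CPM (-1.07 ± 0.30), and its difference from Nkg7/Il2rb-high cells passed (-1.56 ± 0.30, adjusted p = 2.1e-04). That call was lost without WT 1, without WT 2 and in clusters 1 and 2 (adjusted p = 0.236, 0.191 and 1.0). Klf2 stood at 203 CPM in cluster 3 and at 21.7 and 14.7 CPM in clusters 1 and 2, and the part of the share of cluster 3 in its level was not tested. Of 7 tested type I interferon genes 3 lay lower and none higher, beside the same shares of all genes, with a median of -0.80. Ifi27l2a was at 402, 605, 183 and 337 CPM, and its difference passed (-1.44 ± 0.25, adjusted p = 1.0e-05), but not without WT 2 (adjusted p = 0.459) or with at least 4 markers (0.590). In clusters 1 and 2 the difference of Ifi27l2a was -3.01 (adjusted p = 1.4e-06). Medians were 0.0032 for 23 developmental regulators, 0.021 for 11 costimulatory and SLAM receptors, 0.0092 for 11 cytokine receptors and 0.22 for 11 glucocorticoid and FoxO genes. Icos, a costimulatory receptor of later iNKT stages, stood at 349, 430, 129 and 353 CPM, lowest in ACC1 KO 1 as was Zbtb16. Of 18 cytokine and effector genes 4 were tested, among them Il4 at 59.2, 101.5, 50.4 and 179 CPM and Gzmb, granzyme B, at 12.5, 2.21, 50.4 and 28.9 CPM.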

How the data were processed

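The deposited files held raw UMI counts per gene and barcode for 32285 genes, which per the submitters' processing notes came from Cell Ranger 7.0.0 and the mm10 build. Cells and lists were chosen with earlier results of these data known. Doublets were scored within each library (marking 0.8% of cells for every 1000 cells) and kept. UMIs were summed per library and class, and genotypes compared with edgeR 4.0.16 in R 4.3.3 (robust glmQLFit, TMM, filterByExpr, Benjamini-Hochberg over all genes tested, threshold 0.05), with the 14 gate genes left out of the tests. Class differences used 8 sums with library as a term, which share one estimate of spread. Both designs were tested on simulated data. DESeq2 1.42.0, other filters, gates and left-out libraries served as alternatives. Within-number fold changes used log2 CPM (prior count 2). Clusters came from scanpy 1.11.5 (2000 genes, 30 components, 15 neighbours, resolution 0.5, scaled within replicate number), and leading genes from CPM with 20 added. Named by genotype are Acaca, per direction the 5 lowest p-values among non-overlapping genes averaging 20 CPM or more, and from every list at most 4 low-p members. For class differences the rule took at most 5 calls per direction with 20 CPM in a class. Genes against Plac8-positive cells and in the splits, Fdps and Srebf1 in the class difference, the untested lipid genes, and calls listed by name alone were chosen after their values were seen. Ddit3, Aldoa and Mx1 had no row under these symbols. Coordinates are from GENCODE vM21.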

Additional observations from a re-analysis of the deposited data

Results flagged for a closer look

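The genotype effect differed between gated and Nkg7/Il2rb-high cells, by the direct edgeR test given in the report, in the following named genes, as log2 effect in gated minus other cells. S100a6 stood at -1.66, Scd2 at -2.09, Hist1h2ap at -1.71, Hist1h1b at -1.78, Vim at -1.62 and Fdps at -1.57. On the other side, Ikzf2 stood at 1.11, Klra4 at 2.89, Fcer1g at 4.31, Myo9a at 2.09 and Myo6 at 3.02. Against Plac8-positive cells, Akr1c18 stood at -5.89. The adjusted p-values are in the report for each except Klra4 (0.0027) and Myo6 (0.0159). The share of cluster 3 also differed between libraries, and its part in these results was not tested. For Klra4, Myo6, Fcer1g and Akr1c18 there were also gated sums of few UMIs.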

How the results depend on the processing

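All 9 other gates, denominators and depths kept the direction of the share difference (0.279 to 0.734 points), and leaving out 1 library gave -0.021 to 0.915, the lowest without WT 2. By genotype in gated cells, genes called higher and lower numbered 0 and 1 without a filter on low counts, and 0 to 4 and 0 to 4 with 1 library left out. Acaca was -0.25 with at least 4 markers and -0.30 to 0.76 with 1 library left out, reversed without ACC1 KO 2. With the replicate number as a block, 2 were called higher and 17 lower, among them Myo9a, Hist1h1b, Vim, Hgsnat, Tesc and Bcl2a1d. Libraries of one number deviated together (correlation 0.327 over 5875 genes), but with 2 pairs, and no label that says what the number marks, the block was not part of the main test. For the difference from Nkg7/Il2rb-high cells, higher and lower calls numbered 1 to 18 and 11 to 70 with 1 library left out, 3 and 16 with at least 4 markers, 1 and 13 without cycling cells, 3 and 8 in clusters 1 and 2, and 0 and 7 with the same number of cells. Of the 34 calls, 9 remained without WT 2 and 33 with the size factors of DESeq2. Hist1h2ap was 0.40 without cycling cells and Myo6 -1.34 in clusters 1 and 2. With 1 library left out, Klra4 ranged from -3.0 to 3.37 and Myo6 from -8.69 to 3.81, both reversed without ACC1 KO 2. For the difference from Plac8-positive cells, the counts were 1 to 7 and 5 to 26 with 1 library left out, 6 and 17 without cycling cells, and 5 and 12 in clusters 1 and 2, with 0 lower at 4 or more markers and at the same number of cells. Akr1c18 was 1.82 without cycling cells. Scd2 there ranged from -0.98 to 0.29, reversed without WT 2 (0.29) and without ACC1 KO 1 (0.060). With 1 library left out, the lone library of a genotype is assumed to vary like the others. The cause of these changes was not tested. No setting moved the median of all genes by over 0.1.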
